A study of Mus musculus with 48 samples.

Results

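The circadian clock genes examined here were Arntl, Clock, Per1, Per2, Per3, Cry1, Cry2, Nr1d1, Nr1d2 and Dbp, the core of the molecular clock and 1 of its direct outputs. They were taken by name from the array's own annotation. They are 10 of the 34844 gene names on the array and carried 14 of the 55681 probes that were not controls. Their RNA was compared in blood and in the medial prefrontal cortex (mPFC), a frontal brain area tied to mood and stress, of 24 female C57BL/6J mice, all 17 weeks of age. Each mouse gave 1 one-colour Agilent array per tissue, and the labels tie the blood and mPFC of a mouse together. Control mice had a sham operation and no stress. OVX mice had a bilateral ovariectomy, which removes the ovarian source of estrogen, and no stress. CUMS mice had the sham operation and chronic ultra-mild stress, and OVX+CUMS mice had both. Each group held 6 mice. Blood means the pellet of centrifuged heparinized blood, so red cells, white cells and platelets were measured together, and mPFC means a piece cut from a coronal slice under a microscope. In bulk RNA of this kind, fewer cells of a type and less RNA per cell cannot be told apart.

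The clock is a feedback loop. ARNTL (also called BMAL1) and CLOCK bind DNA as a pair at E-boxes and switch on the Per, Cry, Nr1d1, Nr1d2 and Dbp genes. PER and CRY proteins then block that pair, and NR1D1 and NR1D2 (REV-ERB alpha and beta) block Arntl at ROR elements, so Arntl RNA runs in opposite phase to Nr1d1, Dbp and Per RNA. DBP carries the rhythm to other genes through D-boxes, which Per genes also hold. Per1 and Per2 also respond to light, neuronal activity and glucocorticoids. The stress schedule bears on this system directly, since by the study's methods it included nights with the lights on and weekends with light and dark reversed. Every mouse was sampled once, by day. The study's methods give a morning window for the RNA samples and, elsewhere, a window reaching into the afternoon for blood sampling. The hour for each mouse is not given in the sources used here, so a shift of phase and a change of level cannot be told apart.

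The promoters of the genes were searched for letters through which the loop works, as a description. Windows of 250 bases before to 50 bases after the start were taken from the RefSeq promoter table (GRCm38.p6) and searched on both strands for the E-box CACGTG, the D-boxes TTATGTAA and TTATGCAA, and the ROR element cores TAGGTCA and TGGGTCA. Of 32851 windows of all genes, 7.15% held the E-box, 1.66% a D-box and 6.45% a ROR core. Windows were found for 9 of the 10 genes. An E-box and a D-box stood in 1 of the 2 windows of Per1. The window of Per3 held 2 D-boxes and that of Cry1 an E-box, and a ROR core stood just after 1 of the listed starts of Arntl. None of these letters were found in the windows of Clock, Cry2, Nr1d1, Nr1d2 and Dbp, which says only that they were not within these 300 bases. The stretches with matches are shown 5′ to 3′ on the strand of the gene because they hold the letters that ARNTL with CLOCK, DBP and NR1D1 are known to bind, with the matched letters in capitals. They lie at chr11:69098759-69098948 (plus strand) for Per1, chr4:151044806-151044885 (minus strand) for Per3, chr10:85185085-85185144 (minus strand) for Cry1 and chr7:113207525-113207554 (plus strand) for Arntl.
Per1: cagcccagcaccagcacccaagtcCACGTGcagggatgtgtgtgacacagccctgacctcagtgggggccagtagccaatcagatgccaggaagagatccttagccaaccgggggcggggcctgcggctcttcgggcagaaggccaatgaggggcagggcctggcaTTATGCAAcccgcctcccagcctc
Per3: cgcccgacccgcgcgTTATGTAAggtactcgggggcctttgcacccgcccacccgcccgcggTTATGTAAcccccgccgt
Cry1: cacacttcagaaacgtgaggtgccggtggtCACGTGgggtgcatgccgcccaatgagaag
Arntl: tagggaaggcagaaagTAGGTCAgggacgg
The Per1 stretch shows the E-box at position -166 and the D-box at position -24 from the start, and the Per3 stretch the D-boxes at -205 and -158. The Cry1 E-box begins at -60 and the Arntl ROR core at 31.

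All values below are the log2 of the background-subtracted signal minus the 75th percentile of the array, so 0 means a signal equal to that percentile and a step of 1 means a doubling. Before that step the percentile lay between 54.9 and 192 units on the blood arrays and between 572 and 689 on the mPFC arrays, so dim probes were measured with less precision in blood. A probe counted as detected in a tissue when it was well above background on all 24 of its arrays. All 10 clock genes were detected in mPFC, and 5 (Arntl, Per1, Cry2, Nr1d2 and Dbp) in blood. Nr1d2 counts here through 1 of its 2 probes, and the gene which that probe reads is uncertain. Its other probe was well above background on 23 of 24 blood arrays and so was not detected there. In blood, the probes of Clock and Per3 were well above background on 22 and 17 of 24 arrays, those of Per2 and Cry1 on 4, and that of Nr1d1 on 1. The labelled tissues showed their defining genes, with 5 of 5 erythroid and 8 of 8 neutrophil markers detected in blood and 4 of 4 neuron markers in mPFC. Detection alone did not part the tissues, since 2 of 4 neuron and 3 of 3 oligodendrocyte markers were also detected in blood, and 4 of 5 erythroid and 4 of 8 neutrophil markers in mPFC. The mean level of the erythroid markers spanned 8.69 to 10.73 over the blood arrays, against -0.04 to 1.48 over those of mPFC. Each tissue took up 3 slides with 8 arrays apiece. All 6 control mice were on slide 1 beside 2 CUMS mice, the other 4 CUMS mice were on slide 2 beside 4 OVX mice, and the last 2 OVX mice were on slide 3 beside all 6 OVX+CUMS mice, so control and OVX+CUMS mice never shared a slide. In blood, OVX+CUMS mouse 5 stood apart, with a mean of the neutrophil markers of 6.48 where the group medians were 2.71 to 2.95.

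In mPFC, all 3 Period genes rose in mice exposed to CUMS, and no other clock gene passed the test. Per2 rose most, by 1.44-fold, Per1 by 1.26-fold and Per3 by 1.17-fold (the mean of both surgeries, 12 stressed against 12 non-stressed mice). Thus 3 of 10 clock genes were higher, where 2.33% of all 28362 probes tested were higher and 4.19% changed in either direction (limma, Benjamini-Hochberg adjusted p under 0.05). The plot of the 10 genes in mPFC shows each mouse.

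**Figure D1:**
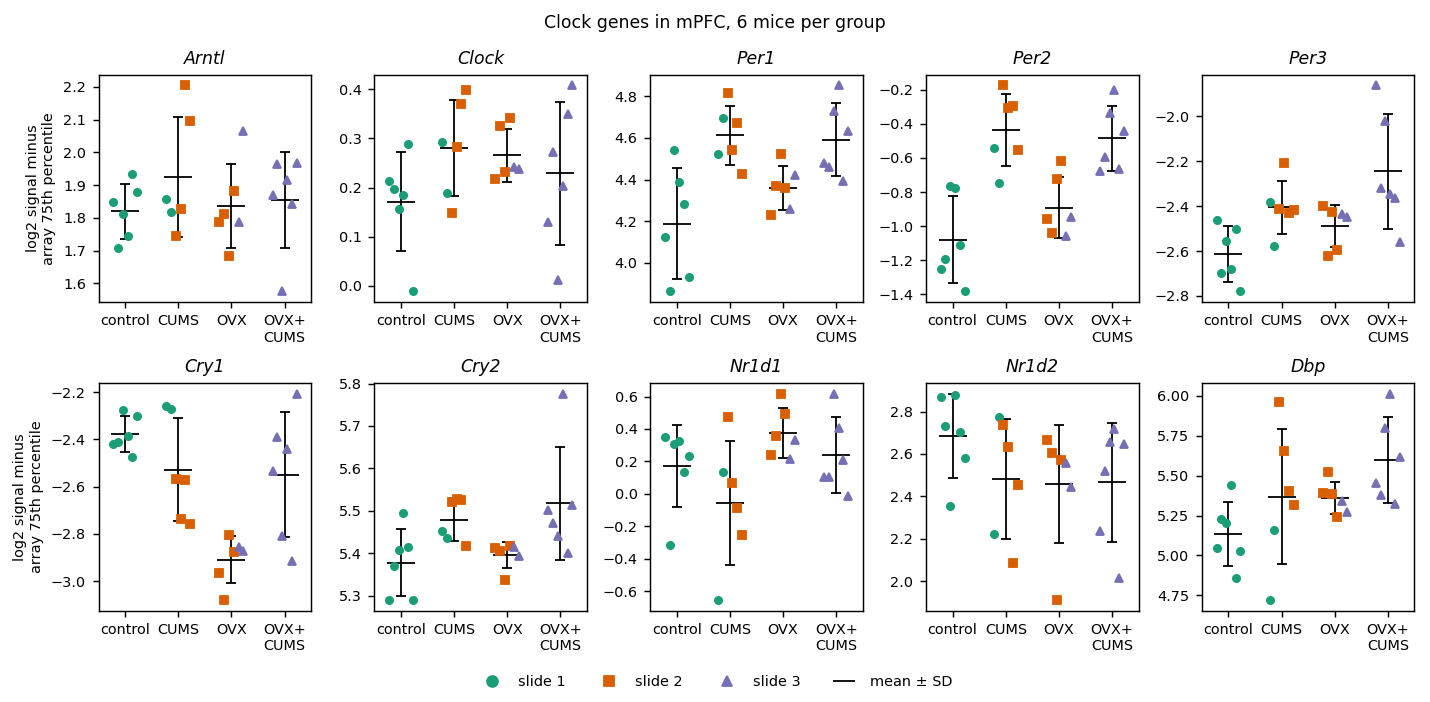
Signal of the 10 clock genes in mPFC by group, as log2 signal minus the 75th percentile of the array. Each point is 1 mouse (6 per group), its colour and shape give the slide, and bars are the mean ± SD. Per2 lies above the highest control mouse in all 6 CUMS and all 6 OVX+CUMS mice, and Cry1 lies below the lowest control mouse in all 6 OVX mice.

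Per2 encodes a repressor that resets the phase of the clock. Its probe lies at chr1:93313046-93313105 (mm9, minus strand). Per2 signal ran from -1.38 to -0.77 in control mice with a median of -1.15. It ran from -0.75 to -0.17 in CUMS mice (median -0.42). In OVX mice it ran from -1.06 to -0.62 (median -0.95), and in OVX+CUMS mice from -0.68 to -0.20 (median -0.52). All 6 CUMS mice and all 6 OVX+CUMS mice lay above every control mouse, and 9 of the 12 stressed mice lay above all 12 non-stressed mice. The difference with CUMS was 0.52 ± 0.08 (log2, SE; adjusted p = 0.00545, limma). OVX+CUMS mice exceeded control mice by 0.59 ± 0.12 (adjusted p = 0.000583, limma). Among ovariectomized mice alone it was 0.41 ± 0.12 (OVX+CUMS minus OVX, adjusted p = 0.208), a contrast in which 0 of 28362 probes passed and 3000 had an unadjusted p under 0.05 (limma). Within slides the difference was 0.44 on slide 1 (CUMS minus control), 0.50 on slide 2 (CUMS minus OVX) and 0.52 on slide 3 (OVX+CUMS minus OVX). The mice compared on slide 2 differ in surgery as well, here and for the genes below. With the slide as a block the Per2 difference was 0.48 ± 0.11 (adjusted p = 0.319). No probe of the 28362 passed with that block. Scaled to the spike-in controls, where the median of all mPFC probes moved by -0.12 with CUMS, the Per2 difference was 0.39 (adjusted p = 0.00805).

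Per1, the other fast-responding Period gene, had its probe at chr11:68923364-68923423 (mm9, plus strand). Per1 signal ran from 3.86 to 4.54 in control mice (median 4.20). In CUMS mice it ran from 4.42 to 4.82 (median 4.61). OVX mice held values of 4.23 to 4.52 (median 4.36), and OVX+CUMS mice 4.39 to 4.85 (median 4.56). The groups overlapped, with 6 of 12 stressed mice above all non-stressed mice. The difference with CUMS was 0.33 ± 0.07 (adjusted p = 0.0241). It was 0.42, 0.25 and 0.25 within slides 1, 2 and 3 and 0.34 with the slide as a block (adjusted p = 0.458). On the spike-in scale it was 0.20 and did not pass (adjusted p = 0.0726).

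Per3, which follows the clock more than it drives it, was dim, with a probe at chr4:150379256-150379315 (mm9, minus strand). Per3 signal ran from -2.78 to -2.46 in control mice (median -2.62). CUMS mice lay between -2.58 and -2.21 (median -2.42), and OVX mice between -2.62 and -2.40 (median -2.44). OVX+CUMS mice reached the highest values, -2.56 to -1.86 (median -2.33). The groups overlapped, and 7 of 12 stressed mice lay above all 12 non-stressed mice. The difference with CUMS was 0.23 ± 0.06 (adjusted p = 0.0487), and the call was lost in 20 of 24 fits that each left out 1 array. Within slides the Per3 difference was 0.13, 0.14 and 0.20, and on the spike-in scale it was 0.10 (adjusted p = 0.411).

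The other repressors, the activators and the output did not pass the test for CUMS in mPFC. Cry2, a repressor that binds PER proteins, differed by 0.11 ± 0.04 (adjusted p = 0.0741), with values of 5.29 to 5.49 in control and 5.42 to 5.53 in CUMS mice. Dbp differed by 0.24 ± 0.11 (adjusted p = 0.187), and its CUMS mice spread from 4.72 to 5.96 around control values of 4.86 to 5.44. Nr1d1, whose E-box driven transcription runs in phase with Dbp, differed by -0.18 ± 0.10 (adjusted p = 0.301). Its lowest CUMS mouse stood at -0.65 and its highest at 0.47, against -0.32 to 0.35 in control mice. For Arntl the difference was 0.06 ± 0.06 (adjusted p = 0.545) and for Clock 0.04 ± 0.04 (adjusted p = 0.665). All 4 group medians of Arntl lay between 1.80 and 1.89.

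Nr1d2 was read by 2 probes that differed in mPFC. The brighter one, used here, matches the transcript BC096461 and is placed by the array's annotation at chr19:40271435-40271494 (mm9), whereas the other is placed on chromosome 14, so the gene it reads is uncertain. The CUMS difference was -0.10 ± 0.10 for the brighter and 0.06 ± 0.06 for the other probe, and neither passed. The probe on chromosome 14 was not detected in blood, so every blood value of Nr1d2 comes from the brighter one.

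Taken against control mice alone, OVX+CUMS mice had higher mPFC signal of Per1 (0.40), Per2 (0.59), Per3 (0.37), Cry2 (0.14) and Dbp (0.46), with adjusted p of 0.00428, 0.000583, 0.00355, 0.0399 and 0.0213 (limma). That is 5 of 10 clock genes, where 20.4% of all probes were higher in this comparison. Dbp ran from 5.32 to 6.01 in OVX+CUMS mice (median 5.54) and from 4.86 to 5.44 in control mice (median 5.13), and 4 of the 6 OVX+CUMS mice lay above every control mouse. These groups share no slide, so slide and group cannot be told apart here.

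Genes around the core clock were read from a list of 22, of which 21 were detected in mPFC. CUMS raised 3 of them and lowered none: Bhlhe40, an E-box repressor (0.29 ± 0.08, adjusted p = 0.0401), Rorb, a receptor that activates ROR elements (0.29 ± 0.08, adjusted p = 0.0445), and Tef, a D-box factor of the Dbp family (0.21 ± 0.04, adjusted p = 0.0125). The median difference of the 21 was 0.05, against 0.01 for all probes. Beside the counts of this list and of those that follow, 2.33% of all mPFC probes were higher with CUMS and 4.19% changed in either direction. Neuronal activity and glucocorticoids, inputs to Per1 and Per2, were followed with a list each. Of 9 activity-dependent genes 2 rose with CUMS, Arc (0.88 ± 0.18) and Nr4a1 (0.51 ± 0.12), and the median of the 9 was 0.33. Their mean level spanned 1.46 to 2.52 in control, 2.09 to 2.68 in CUMS, 1.67 to 2.03 in OVX and 1.62 to 2.60 in OVX+CUMS mice, and their part in the Period result was not tested. Of 10 glucocorticoid-induced genes none passed in mPFC, with a median of 0.02.

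With OVX, Cry1 alone among the clock genes changed in mPFC, and it fell. Cry1 encodes the stronger of the cryptochrome repressors, and its probe lies at chr10:84594731-84594790 (mm9, minus strand). Cry1 signal ran from -2.47 to -2.28 in control mice (median -2.40). In CUMS mice it ran from -2.76 to -2.26 (median -2.57). OVX mice had the lowest values, -3.08 to -2.81 (median -2.87), and OVX+CUMS mice spread from -2.91 to -2.21 (median -2.49). All 6 OVX mice lay below every control mouse. The difference with OVX was -0.28 ± 0.07 (adjusted p = 0.00592). This is 1 of 10 clock genes, where 30.9% of all probes changed with OVX and 11.7% were lower. Of the 21 clock-related genes, Npas2, a relative of Clock (0.17), Tef (0.12) and Csnk1d, a kinase of PER proteins (0.10), rose with OVX. These 3 of 21 stand beside 19.1% of all mPFC probes that were higher, so the list did not stand out. Per3 (0.14, adjusted p = 0.0969), Nr1d1 (0.25, adjusted p = 0.0773) and Dbp (0.23, adjusted p = 0.112) did not pass.

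Cry1 was also the 1 clock gene of 10 with an interaction in mPFC, where 4.47% of all probes had one. The difference with stress was -0.15 in sham-operated and 0.36 in ovariectomized mice, an interaction of 0.51 ± 0.14 (adjusted p = 0.0463). The call was lost in 20 of 24 fits that left out 1 array. The Cry1 values moved with the slide as well. The 2 CUMS mice on slide 1 stood at -2.26 and -2.27, beside the control mice of that slide, and the 4 CUMS mice on slide 2 at -2.76 to -2.57. Within slides, Cry1 differed by 0.11 on slide 1 (CUMS minus control), by 0.27 on slide 2 (CUMS minus OVX, which holds the surgery as well) and by 0.31 on slide 3 (OVX+CUMS minus OVX). With the slide as a block the OVX difference of Cry1 was -0.06 ± 0.14 (adjusted p = 0.964) and the interaction 0.20.

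**Figure D2:**
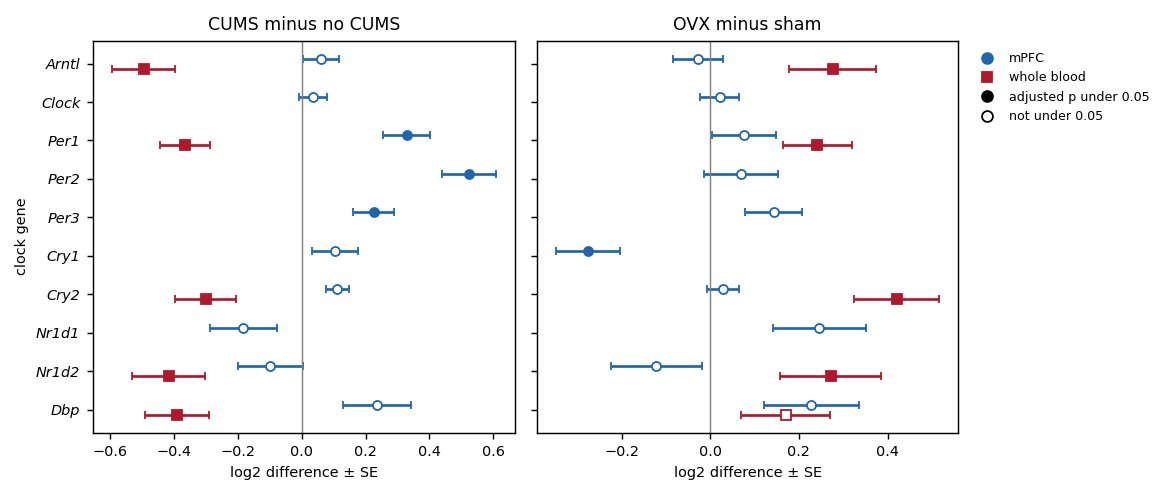
Difference with CUMS (left) and with OVX (right) for each clock gene, in log2 units with SE, in mPFC (blue circles) and blood (red squares, 5 detected genes). Filled symbols have an adjusted p under 0.05 (limma, 24 arrays per tissue). In blood all 5 genes lie below 0 for CUMS and above 0 for OVX, while in mPFC the filled symbols are Per1, Per2 and Per3 for CUMS and Cry1 for OVX.

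In blood, all 5 detected clock genes fell with CUMS and 4 of the 5 rose with OVX. Activator, repressors and output moved together there. Both counts include Nr1d2, read in blood only by the probe of uncertain position. The count of 5 lower genes stands beside 29.4% of all 20780 blood probes that were lower (48.5% changed in either direction), and the 4 higher genes with OVX stand beside 27.5% that were higher (55.1% in either direction). The 75th percentile of the blood arrays, before it was taken off, also differed by group, with its lowest value in CUMS and its highest in OVX mice. It was 81.3 to 132 in control, 54.9 to 105 in CUMS, 110 to 192 in OVX and 103 to 144 in OVX+CUMS mice. Its range thus lay higher in OVX+CUMS than in control mice. The gene signal of OVX+CUMS minus control mice was -0.22 for Arntl, -0.12 for Per1, -0.15 for Nr1d2 and -0.22 for Dbp. For Cry2 it was 0.12, and none of the 5 passed (limma). The part of the percentile in the blood differences was not tested.

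**Figure D3:**
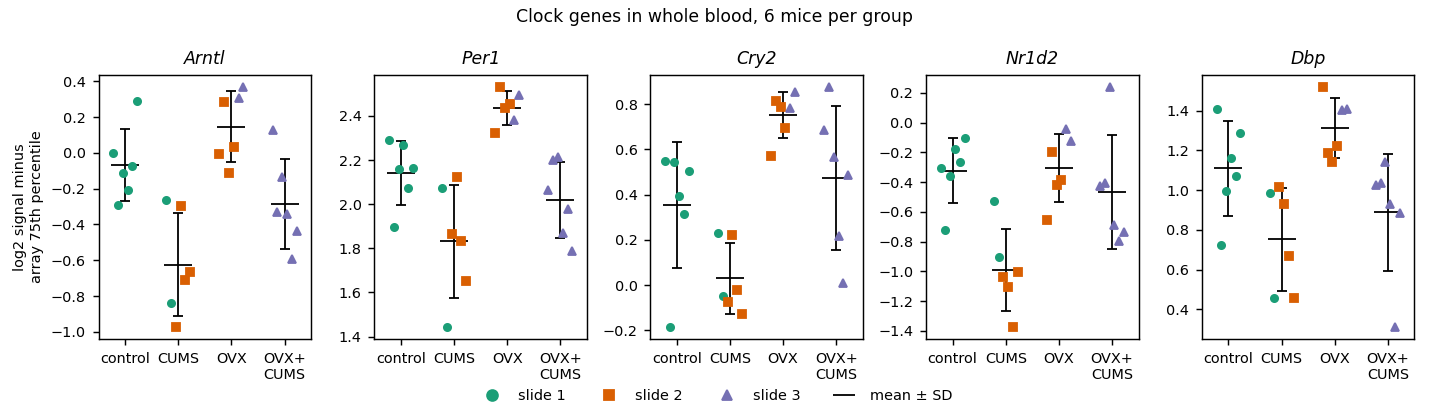
Signal of the 5 clock genes detected in blood by group, as log2 signal minus the 75th percentile of the array. Each point is 1 mouse (6 per group), colour and shape give the slide, and bars are the mean ± SD. CUMS mice have the lowest and OVX mice the highest group mean for each of the 5 genes.

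Arntl, the activator without which the loop stops, fell most. Its probe lies at chr7:120457261-120457320 (mm9, plus strand). Arntl signal in blood ran from -0.29 to 0.29 in control mice (median -0.09). In CUMS mice it ran from -0.97 to -0.26 (median -0.69). In OVX mice the values were -0.11 to 0.37 (median 0.16), and in OVX+CUMS mice -0.59 to 0.13 (median -0.33). The groups overlapped, and 9 of 12 stressed mice lay below all 12 non-stressed mice. The CUMS difference was -0.50 ± 0.10 (adjusted p = 0.0013), and the OVX difference 0.28 ± 0.10 (adjusted p = 0.0221).

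Per1 in blood ran from 1.90 to 2.29 in control mice (median 2.16) and from 1.44 to 2.12 in CUMS mice (median 1.85). It ran from 2.32 to 2.53 in OVX mice (median 2.44) and from 1.79 to 2.21 in OVX+CUMS mice (median 2.02). All 6 OVX mice lay above every control mouse and above every OVX+CUMS mouse. The CUMS difference was -0.36 ± 0.08 (adjusted p = 0.00185) and the OVX difference 0.24 ± 0.08 (adjusted p = 0.0131).

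Dbp in blood ran from 0.72 to 1.41 in control mice (median 1.12) and from 0.46 to 1.02 in CUMS mice (median 0.80). It ran from 1.14 to 1.52 in OVX mice (median 1.31) and from 0.31 to 1.14 in OVX+CUMS mice (median 0.98). All 6 OVX+CUMS mice lay below all 6 OVX mice, and the other groups overlapped. The CUMS difference was -0.39 ± 0.10 (adjusted p = 0.00453). The OVX difference of 0.17 ± 0.10 did not pass (adjusted p = 0.147), although the second Dbp probe, which read the same transcript, gave 0.39 ± 0.10 (adjusted p = 0.00235).

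Cry2 fell by 0.30 with CUMS (SE 0.10, adjusted p = 0.015) and rose by 0.42 with OVX (SE 0.10, adjusted p = 0.00139). Its OVX mice, at 0.57 to 0.85, all lay above the control mice, at -0.18 to 0.55. A second Cry2 probe, for another transcript variant, showed neither (0.00 with CUMS and -0.08 with OVX), so the Cry2 result holds for 1 of 2 probes. The Nr1d2 probe of uncertain position fell by 0.42 with CUMS (SE 0.11, adjusted p = 0.00662) and rose by 0.27 with OVX (SE 0.11, adjusted p = 0.0474). The Nr1d2 call for OVX was lost in 16 of 24 fits that left out 1 array. No clock gene had an interaction in blood (0 of 5, limma, where 1.41% of all probes had one), and 1, Nr1d2, had an unadjusted p under 0.05 (0.0357).

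Within slides, each of the 5 blood differences between stressed and non-stressed mice was below 0. On slide 1 (CUMS minus control) they ran from -0.49 for Arntl to -0.26 for Cry2. On slide 2 (CUMS minus OVX, which holds the surgery as well) they ran from -0.72 for Cry2 to -0.50 for Dbp. On slide 3 (OVX+CUMS minus OVX) they ran from -0.62 for Arntl to -0.35 for Cry2. Slides 1 and 3 held only 2 mice of 1 group, and 0 of 20780 blood probes passed there (limma). With the slide as a block, 4 of the 5 clock genes still fell with CUMS (Arntl by 0.55, Dbp by 0.45, Per1 by 0.40 and Nr1d2 by 0.39), and Cry2 did not pass (-0.30, adjusted p = 0.0704). With that block none of the 5, and 0 of all 20780 blood probes, passed for OVX (limma), the largest being Cry2 at 0.41 (adjusted p = 0.793). On the spike-in scale, where the median of all blood probes moved by -0.29 with CUMS and 0.19 with OVX, all 5 fell with CUMS and Cry2 alone rose with OVX (0.57). Without OVX+CUMS mouse 5, all 5 fell with CUMS, from -0.46 for Arntl to -0.25 for Cry2, and all 5 rose with OVX, Dbp by 0.23 (adjusted p = 0.0331).

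Some blood cell markers, mainly those of B cells and erythroid cells, moved with the same contrasts. With CUMS all 4 of 4 B cell markers fell (median -0.44), 3 of 5 T cell markers fell and 4 of 5 erythroid markers rose, where 29.4% of all blood probes were lower and 19.1% higher. With OVX 3 of 4 B cell markers rose and 5 of 5 erythroid and 2 of 5 T cell markers fell, where 27.5% of all blood probes were higher and 27.7% lower. Of the other lists, 1 of 8 neutrophil markers rose and 1 of 3 NK cell markers fell with CUMS. With OVX 1 of 3 NK cell and 1 of 4 platelet markers fell. No other marker of these lists passed, nor did either of the 2 monocyte markers detected. The mean level of the B cell markers spanned 5.32 to 5.84 in control, 4.69 to 5.59 in CUMS, 5.93 to 6.25 in OVX and 4.71 to 5.98 in OVX+CUMS mice. That of the erythroid markers spanned 9.20 to 10.35, 9.77 to 10.73, 8.69 to 9.69 and 9.19 to 9.83 in the same order. Around the core clock, 9 of the 22 listed genes were detected in blood. Among these, Cipc fell by 0.50, Timeless by 0.46 and Tef by 0.36 with CUMS, and Csnk1d rose by 0.41, Tef by 0.38, Timeless by 0.35 and Cipc by 0.33 with OVX. The part of the cell markers in the blood clock results was not tested.

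Whether the differences differed in size between the tissues was tested directly, with blood and mPFC of a mouse as a random block. Per1 alone passed in both tissues for CUMS, higher in mPFC and lower in blood. The CUMS difference was lower in blood than in mPFC by 0.69 ± 0.10 for Per1 (adjusted p = 2.26e-05), by 0.63 ± 0.14 for Dbp, by 0.56 ± 0.11 for Arntl and by 0.41 ± 0.10 for Cry2. Nr1d2 did not pass (-0.32 ± 0.15, adjusted p = 0.0697). The 4 of 5 clock genes stand beside 51.4% of the 17556 probes detected in both tissues whose CUMS difference differed between them, and all 4 passed with the slide as a block. For OVX the difference was higher in blood than in mPFC for Cry2 (0.39), Nr1d2 (0.39) and Arntl (0.30), 3 of 5 beside 39.3% of probes, and none passed with the slide as a block. The second Cry2 probe had no such call, at -0.06 ± 0.15 for CUMS (adjusted p = 0.727) and -0.18 ± 0.15 for OVX (adjusted p = 0.332), so both Cry2 calls hold for 1 of 2 probes. The level of each of the 5 genes, read by the same probe and relative to the percentile of its array, was higher in mPFC than in blood in 24 of 24 mice, by 2.07 ± 0.41 (SD) for Arntl up to 5.04 ± 0.38 for Cry2. The second Cry2 probe, for another transcript variant, went the other way and was higher in blood by 0.85 ± 0.07 (SE, adjusted p = 8.33e-15, limma), so the Cry2 order of the tissues depends on the probe.

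Phase relations were read from how the genes deviated together, mouse by mouse, from their group means. In mPFC, 5 of 45 pairs of clock genes correlated across the 24 mice after adjustment over the 45, and all 5 were positive. They were Per1 with Per2 (r = 0.733, rho = 0.715, adjusted p = 0.0213), Per1 with Nr1d1 (r = 0.615, rho = 0.655, adjusted p = 0.0213), Per2 with Cry2 (r = 0.607, rho = 0.651, adjusted p = 0.0213), Per2 with Dbp (r = 0.602, rho = 0.583, adjusted p = 0.0358) and Cry2 with Dbp (r = 0.543, rho = 0.548, adjusted p = 0.0435; permutation of mice within groups). The adjusted p of rho was 0.0218, 0.0218, 0.0288, 0.0834 and 0.122 in that order. Without the 2 mice farthest from the median of the first gene, r was 0.717, 0.554, 0.567, 0.584 and 0.37. With the means of group and slide removed, r was 0.802, 0.645, 0.62, 0.499 and 0.57, of which the first 3 passed. Without OVX+CUMS mouse 5, Per1 with Per2 and Per1 with Nr1d1 passed. Nr1d1 with Dbp did not pass, although its r of 0.607 lay above those of Per2 with Dbp and Cry2 with Dbp. As background, Per1, Per2, Cry2, Nr1d1 and Dbp are all driven from E-boxes. So are Per3, Cry1 and Nr1d2, which were in none of these pairs. The part of E-boxes in the pairs was not tested.

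**Figure D4:**
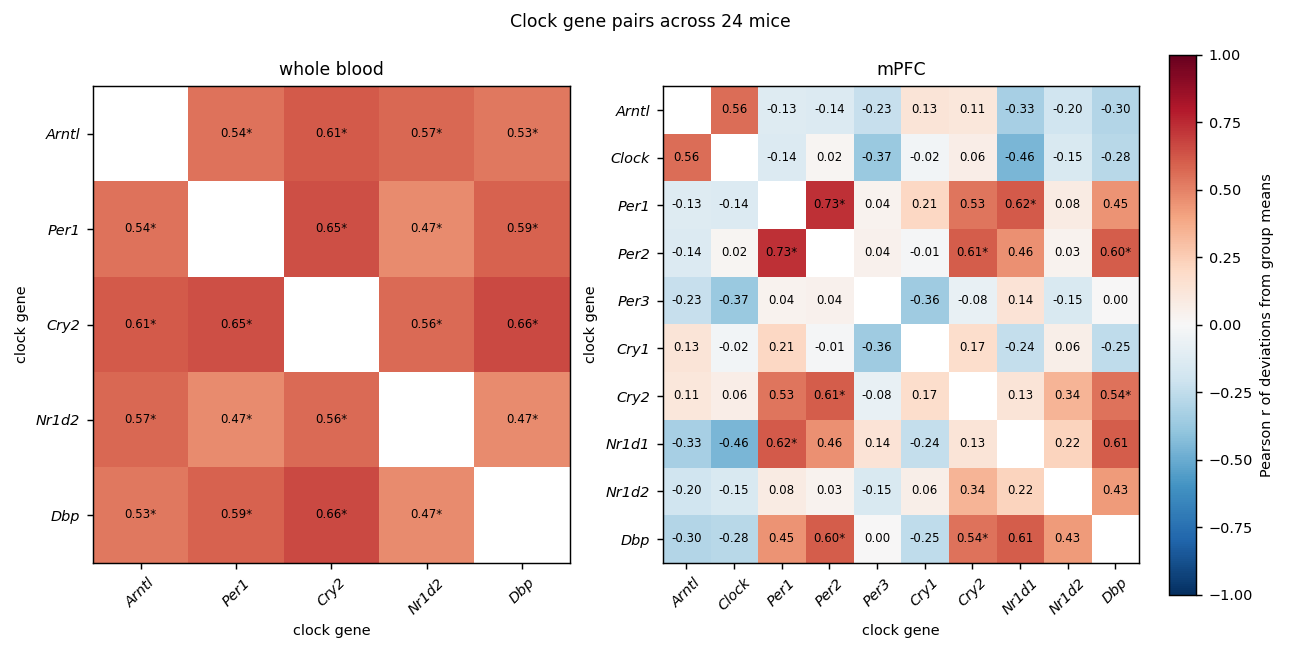
Pearson r between clock genes across 24 mice, from deviations from the group means, for the 5 genes detected in blood (left) and the 10 genes in mPFC (right). Red is positive, blue negative, and an asterisk marks an adjusted p under 0.05 within the tissue. All 10 blood pairs are positive with asterisks, while in mPFC Arntl and Clock are below 0 with Nr1d1, Nr1d2, Dbp, Per1 and Per3 without passing.

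In mPFC, Arntl gave negative r with Nr1d1, Nr1d2, Dbp, Per1, Per2 and Per3, and none passed. Its r with Cry1 (0.126) and Cry2 (0.111) was positive and did not pass either. Clock was also below 0 with Nr1d1, Nr1d2, Dbp, Per1 and Per3 without passing. Arntl with Clock stood at r = 0.559 (rho = 0.515, adjusted p = 0.0601, permutation). Arntl with Dbp stood at r = -0.295 (adjusted p = 0.695), with Nr1d1 at -0.333 (adjusted p = 0.582) and with Per1 at -0.13 (adjusted p = 0.824). Clock with Nr1d1 was the most negative of the 45 pairs, at r = -0.46 (adjusted p = 0.163). With the means of group and slide removed, Arntl with Dbp stood at r = -0.569 (adjusted p = 0.0809) and Arntl with Nr1d1 at -0.417 (adjusted p = 0.199). Among all 28362 mPFC probes, 97.8% had a lower r to Dbp than Per2 had and 97.9% a lower r than Nr1d1 had, while 14.6% had a lower r than Arntl. No pair with Per3 or Cry1 passed, with r between -0.369 and 0.209.

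In blood, pairs of opposite phase were positive as well. All 10 pairs of the 5 clock genes were positive and passed, from r = 0.472 for Per1 with Nr1d2 (adjusted p = 0.0402, permutation) to r = 0.66 for Cry2 with Dbp (adjusted p = 0.0109). Arntl with Per1 stood at r = 0.54 (rho = 0.554, adjusted p = 0.0264) and Arntl with Dbp at r = 0.526 (rho = 0.469, adjusted p = 0.0264). Without the 2 mice farthest from the median, r ranged from 0.365 to 0.702 over the 10 pairs. All 10 passed with the means of group and slide removed. Without OVX+CUMS mouse 5, 7 passed, and Arntl with Dbp (r = 0.443), Per1 with Nr1d2 (r = 0.476) and Nr1d2 with Dbp (r = 0.398) did not. Many other blood probes were as close. Of all 20780 blood probes, 83.7% had a lower r to Dbp than Arntl had, and 92.7% a lower r than Cry2 had.

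The same deviations in blood also went with the array and with the cell markers, in a family of 25 relations. With the log2 of the 75th percentile of the array, r was 0.713 for Per1, 0.631 for Dbp, 0.619 for Arntl, 0.464 for Nr1d2 and 0.44 for Cry2 (adjusted p of 0.00146, 0.00397, 0.00646, 0.0303 and 0.0249; permutation). With the mean of the B cell markers, r was 0.784 for Dbp (rho = 0.643), 0.767 for Arntl (rho = 0.86), 0.733 for Cry2 (rho = 0.749), 0.638 for Per1 (rho = 0.714) and 0.567 for Nr1d2 (rho = 0.569), each with an adjusted p of 0.0395 or less. With the mean of the erythroid markers it was negative, from -0.764 for Dbp to -0.596 for Nr1d2. With the T cell markers, r was 0.843 for Dbp, the highest of the 25, 4 of 5 genes passed and Nr1d2 did not (r = 0.389, adjusted p = 0.13). Without the 2 mice farthest from the median of the T cell markers, r was 0.718 for Dbp, 0.525 for Per1, 0.434 for Arntl, 0.406 for Cry2 and 0.183 for Nr1d2. With the neutrophil markers Cry2 alone passed (r = -0.564, rho = -0.415, adjusted p = 0.016), and Per1 stood at -0.116 (adjusted p = 0.706). Without the 2 mice farthest from the median of the neutrophil markers, r of Cry2 was -0.375. In mPFC none of 40 relations of the 10 genes to the percentile, the activity-dependent genes, oligodendrocyte or neuron markers passed, and the lowest adjusted p was 0.296. The part of these measures in the blood pairs was not tested.

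Genes of the most similar pattern were listed for Dbp and Arntl, as a description. In blood, the 5 probes closest to Dbp over 24 mice were Rpap1 (r = 0.912), Fam189b (0.905), Mtbp (0.898), 2510002D24Rik (0.897) and Zfp7 (0.89). Those closest to Arntl were Ero1b (0.887), Irf4, a transcription factor of B and plasma cells (0.875), Hhex (0.875), Strbp (0.872) and Rbbp7 (0.864). In mPFC, those closest to Dbp were Lrrc4b (0.819), Ube2o (0.819), Hook2 (0.818), Pecr (0.807) and Lgals8 (0.804). Those closest to Arntl were Ppm1h (0.777), Marchf1 (0.775), Rab5if (0.771), Epc2 (0.757) and Rabep1 (0.753). The gene lists of the tissues shared no name, and none of the 22 clock-related genes was among them.

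No clock gene correlated between blood and mPFC of the same mouse after adjustment (0 of 5, and 0 of 5 at an unadjusted p under 0.05). Across 24 mice r was 0.167 for Dbp (rho = 0.119), 0.153 for Nr1d2 (rho = 0.073), 0.12 for Arntl (rho = 0.24), 0.0574 for Per1 (rho = 0.073) and -0.138 for Cry2 (rho = -0.168). The adjusted p over the 5 genes was 0.799 for every r and 0.753 for every rho (permutation). Without the 2 mice farthest from the median in blood, r was 0.0959, 0.211, 0.181, 0.181 and -0.466. The median of the 5 was 0.12, against a median of 0.075 for all 17556 probes detected in both tissues, of which the middle 90% lay between -0.371 and 0.514. The blood deviation and the mPFC deviation had the same sign in 11 of 24 mice for Dbp, 12 for Arntl and Per1, 13 for Nr1d2 and 9 for Cry2. With the means of group and slide removed, r lay between -0.128 and 0.19.

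**Figure D5:**
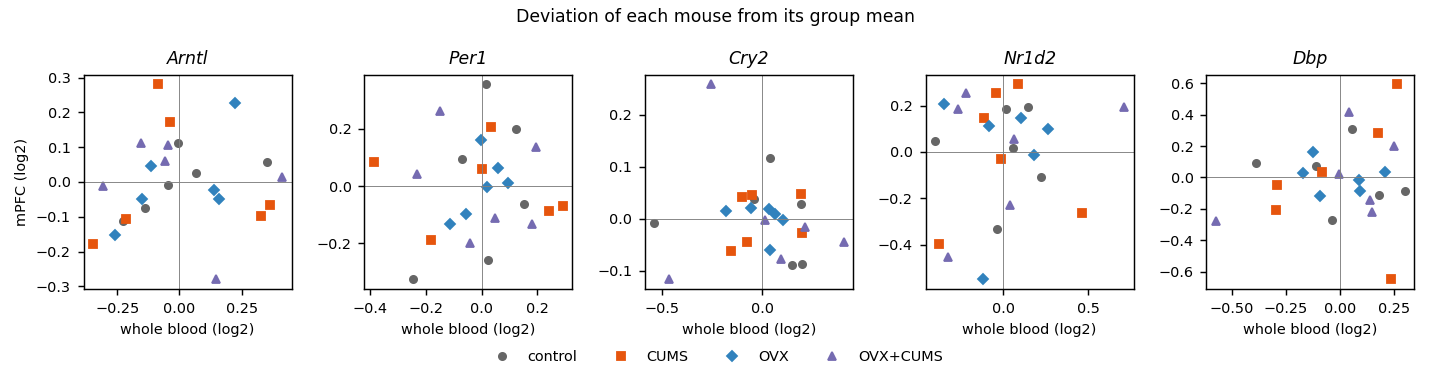
Deviation of each mouse from its group mean in blood (x axis) and in mPFC (y axis), in log2 units, for the 5 clock genes detected in both tissues. Each point is 1 of 24 mice and its colour and shape give the group. The points spread over all 4 quadrants, with r between -0.138 and 0.167.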

How the data were processed

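RNA of blood and mPFC was read on 48 Agilent mouse arrays (8 per slide, 24 per tissue). The intensity of each spot was deposited by the authors as made with Feature Extraction 10.7.3.1, background-subtracted, in arbitrary units. A log2 table normalized by the authors to the 75th percentile was also deposited, and matched the values computed here within 0.001 for 100.0% of the 55249 probes with 1 spot, up to 1 constant per array. Here, log2 intensities without flagged spots were averaged per probe, and from each array its own 75th percentile was taken off. No spot was saturated. A probe had to be well above background on all arrays of a tissue and over 50 on at least 2. For several probes of a gene, the brightest detected in both tissues (or in either) was used. Effects were tested with limma 3.58.1 (R 4.3.3) in a model of surgery, stress and interaction, two-sided, adjusted over all detected probes at 0.05. Correlations used 100000 permutations of mice within groups (Python 3.11.15). Mice are separate animals, and p-values measure their spread. By the study's methods several mice shared a cage, and the cage of each mouse is not given in the sources used here. The p-values therefore do not measure a spread between cages. The models and correlations were tested on simulated data. The genes named were the 10 clock genes, genes of a clock-related list that passed (1 result of that list is not reported here), and the 5 probes closest to Dbp and to Arntl. The genes and lists were chosen with earlier results of these data known. A replicate number is not shared by mice across groups in more than name. Mice of the same number in different groups had a median correlation of -0.093 in blood and 0.0383 in mPFC. The probe positions are those of the array's annotation (mm9). The alternatives were normexp correction (offset 50), quantile normalization, the percentile over detected probes, a spike-in shift, the authors' values, other detection rules, no moderation of the spread, slide or replicate number as a block, all probes, and leaving out each array.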

Additional observations from a re-analysis of the deposited data

Results flagged for a closer look

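In 7 of 60 groups of 6 mice, 1 mouse lay far from the other 5 relative to the range of its group, where chance gives about 1 in 20 groups. In mPFC these were OVX+CUMS mouse 3 for Arntl (1.58, the lowest), OVX mouse 3 for Cry2 (5.34, the lowest) and Nr1d2 (1.91, the lowest), OVX+CUMS mouse 4 for Cry2 (5.78, the highest) and control mouse 2 for Nr1d1 (-0.32, the lowest). In blood they were control mouse 2 for Cry2 (-0.18, the lowest) and OVX+CUMS mouse 5 for Dbp (0.31, the lowest), the mouse with the highest neutrophil markers.

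The difference with stress differed between sham-operated and ovariectomized mice for Cry1 in mPFC (interaction of 0.51 in log2 units). The CUMS difference differed between the tissues, blood minus mPFC, for Per1 (-0.69), Dbp (-0.63), Arntl (-0.56) and Cry2 (-0.41). The OVX difference did so for Cry2 (0.39), Nr1d2 (0.39) and Arntl (0.30).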

How the results depend on the processing

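Of the values of single clock genes under alternatives other than leaving out an array, 250 kept direction and side of the threshold, 29 no longer passed, 4 newly passed and 16 moved without a call. The 3 genes called for CUMS in mPFC became 1 on the spike-in scale, 1 without a detection filter and 0 with the slide as a block. The count was also 1 among probes detected on all 48 arrays, but Per2 and Per3 are not among those probes and could not be called there. The 4 called for OVX in blood became 1 on the spike-in scale and 0 with the slide block. The 1 called for OVX in mPFC became 2 with normexp, 2 with quantile normalization and 0 with the slide block. Cry1 is not among the probes detected on all 48 arrays, so that setting could not test its OVX or interaction call. The 1 with an interaction in mPFC became 0 with normexp, quantile normalization, the spike-in scale, no filter, no moderation and the slide block. The 3 whose OVX difference differed between tissues became 0 with the slide block. The 5 mPFC pairs became 3 with the means of group and slide removed, 3 by Spearman's rho and 2 without OVX+CUMS mouse 5. In blood, Nr1d2 no longer passed for CUMS with normexp (-0.14, adjusted p = 0.0607). The cause was not tested. With the replicate number as a block, which does not pair the mice, 2 genes passed for OVX and 0 for the interaction in mPFC, 3 for OVX in blood, and the other counts did not change.

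Leaving out 1 array at a time gave 5 to 5 genes for CUMS, 3 to 5 for OVX and 0 to 0 for the interaction in blood, and 2 to 4, 1 to 3 and 0 to 1 in mPFC. The mPFC count for OVX was 3 without CUMS mouse 3 and 2 without OVX+CUMS mouse 6. The signal of dim probes over background in blood limits what can be read there, and 5 clock genes were not tested in blood.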
